A study of Mus musculus with 6 samples.

Results

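The initiation and elongation factors of cytoplasmic translation were described across the 6 libraries of muscle stem cells. They were taken by symbol, as every gene of the table whose name starts with Eif1 to Eif6 or with Eef1 or Eef2, without the eIF2 alpha kinases, the Eef1akmt methyltransferases and pseudogenes. The rule found 58 of 12067 genes. It also takes in a few neighbours of the factors proper: the eIF4E-binding proteins, the kinase of eEF2, and Eef2kmt and Eef1aknmt, which methylate eEF2 and eEF1A. Members that are not in the table, such as Eef1a2 and Eif4ebp3, were not analysed here. The mice were male C57BL/6, and quiescent stem cells of limb muscle were sorted as CD45-, CD31-, Sca1- and VCAM+ cells, labelled with ThiolTracker Violet (5 uM), which glows with the cell's reduced glutathione (GSH), and sorted a second time. The 3 groups were old GSH-low and old GSH-high cells, both from 23-month-old mice with 2 animals pooled per library, and young cells from 4-month-old mice, with 1 animal per library. In young mice nearly all cells stained high, and all were collected. Each group had 2 libraries, and whether the old GSH-low and old GSH-high libraries share animals is not stated.

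Initiation brings a ribosome to the start codon. eIF2 carries the initiator tRNA to the small subunit, eIF2B recharges eIF2 with GTP, eIF3 organises the complex on the small subunit, and the eIF4 factors bind the cap and unwind the leader of the mRNA. Elongation then runs on eEF1A, which delivers aminoacyl-tRNA, its exchange factor eEF1B, eIF5A and the translocase eEF2. Quiescent muscle stem cells make little protein, and phosphorylation of eIF2 alpha is known to help hold mouse satellite cells in quiescence.

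The reads recovered came to 50.71 M and 47.0 M for the old GSH-low pair, 68.79 M and 60.76 M for the old GSH-high pair and 63.11 M and 60.05 M for the young pair. A member had between 57 reads (Eif3j2, lowest library) and 196243 reads (Eef1a1, highest library). All 12 satellite cell markers on the list used to check the cell type had values, with summed RPKM of 3230.4 and 3112.5 in the old GSH-low libraries, 3749.6 and 3570.3 in the old GSH-high libraries and 4122.3 and 3900.2 in the young libraries. The list was split by gene. By the limma-trend test used below, 1 (Pax7) rose and 5 fell in old GSH-low against young. In old GSH-high against young 0 rose and 3 fell, and between the old groups 1 (Pax7) rose and 0 fell. Pax7 had 11.2 and 12.6 RPKM in the old GSH-low libraries, 8.09 and 8.65 in the old GSH-high libraries and 7.93 and 7.64 in the young libraries. Myod1, on the same list, made up more of the sums. It had 630.0 and 594.0, 877.2 and 758.6, and 688.2 and 673.7 RPKM in the same order, and did not pass in any comparison. Whether the cells were still quiescent when RNA was taken was not tested. Summed levels of the markers of other cells differed between libraries as follows. The 7 tendon cell markers summed to 2904.6 and 2504.4 RPKM in the old GSH-low libraries, 763.1 and 601.0 in the old GSH-high libraries and 34.7 and 33.3 in the young libraries. The 10 endothelial markers summed to 21.5 and 17.6, 51.4 and 52.4, and 25.3 and 31.1 RPKM in old GSH-low, old GSH-high and young libraries. Macrophage markers, of which 3 of 7 had values, summed to 32.0 and 28.9 RPKM in the old GSH-low libraries, 27.5 and 36.1 in the old GSH-high libraries and 5.38 and 7.51 in the young libraries. Lymphocyte markers (4 of 6 with values, Ms4a1 at 0 in at least 1 library) summed to 13.0 and 10.6 in the old GSH-low libraries, 1.95 and 2.17 in the old GSH-high libraries and 1.01 and 1.0 in the young libraries. Fat cell markers (4 of 6 with values, Adipoq, Cidec and Cfd at 0 in at least 1 library) summed to 5.44 and 4.23 in the old GSH-low libraries, 89.7 and 69.6 in the old GSH-high libraries and 8.79 and 8.97 in the young libraries. The 8 of 9 myofibre markers with values summed to 52.5 and 53.5 RPKM in the old GSH-low libraries, 24.6 and 26.9 in the old GSH-high libraries and 44.4 and 44.4 in the young libraries. The 6 Schwann cell markers summed to 16.4 and 11.8 RPKM in the old GSH-low libraries, 16.6 and 17.7 in the old GSH-high libraries and 8.18 and 7.02 in the young libraries. Markers of fibro-adipogenic progenitors (7) summed to 1036.6 and 999.4 RPKM in the old GSH-low libraries, 957.1 and 877.9 in the old GSH-high libraries and 904.8 and 1034.6 in the young libraries, and those of pericytes and smooth muscle (7) to 151.8 and 149.4, 134.6 and 157.2, and 185.0 and 194.2 RPKM in the same order. Single genes of these 2 lists did not all follow the sums. By the limma-trend test used below, 5 fibro-adipogenic markers rose and 1 fell in old GSH-high against young. In old GSH-low against young 4 rose and 2 fell (median log2 fold changes 1.01 and 0.50). Of 6 tested pericyte and smooth muscle markers, 4 rose and 1 fell, and 3 rose and 1 fell, in the same comparisons (medians 0.64 and 0.70). Translation factors are made by all cell types, and the part of these markers' cells in the results below was not tested. In bulk libraries fewer cells of a type and less RNA per cell cannot be told apart.

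The 58 genes spanned more than 3 orders on the log10 scale. The highest mean levels over the 6 libraries were those of Eef1a1 (1147.6 RPKM), the start-codon factor Eif1 (1060.1 RPKM), Eif5a (811.8 RPKM), the translocase Eef2 (381.6 RPKM) and the helicase Eif4a1 (276.3 RPKM). Eef1a1, Eif1 and Eif5a together made up 48.9% and 49.4% of the members' summed RPKM in the old GSH-low libraries, 48.7% and 47.5% in the old GSH-high libraries and 48.8% and 47.1% in the young libraries. The lowest level was that of Eif3j2, at 0.467 and 0.524 RPKM in the old GSH-low libraries, 0.516 and 0.632 in the old GSH-high libraries and 0.533 and 0.422 in the young libraries. Eif3j2 was the one member that did not pass the filter of 1 RPKM in 2 libraries, so that 57 were tested. It shares 84.0% of its 100-base stretches with Eif3j1, so its reads are uncertain. All members together summed to 5994.5 and 6026.1 RPKM in the old GSH-low libraries, 6236.9 and 6282.0 in the old GSH-high libraries and 6823.9 and 6072.3 in the young libraries, and both old GSH-low sums were below those of the other 4 libraries. The members took 2.07% and 2.06% of all reads in the old GSH-low libraries, 2.14% and 2.19% in the old GSH-high libraries and 2.14% and 2.0% in the young libraries.

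**Figure D1:**
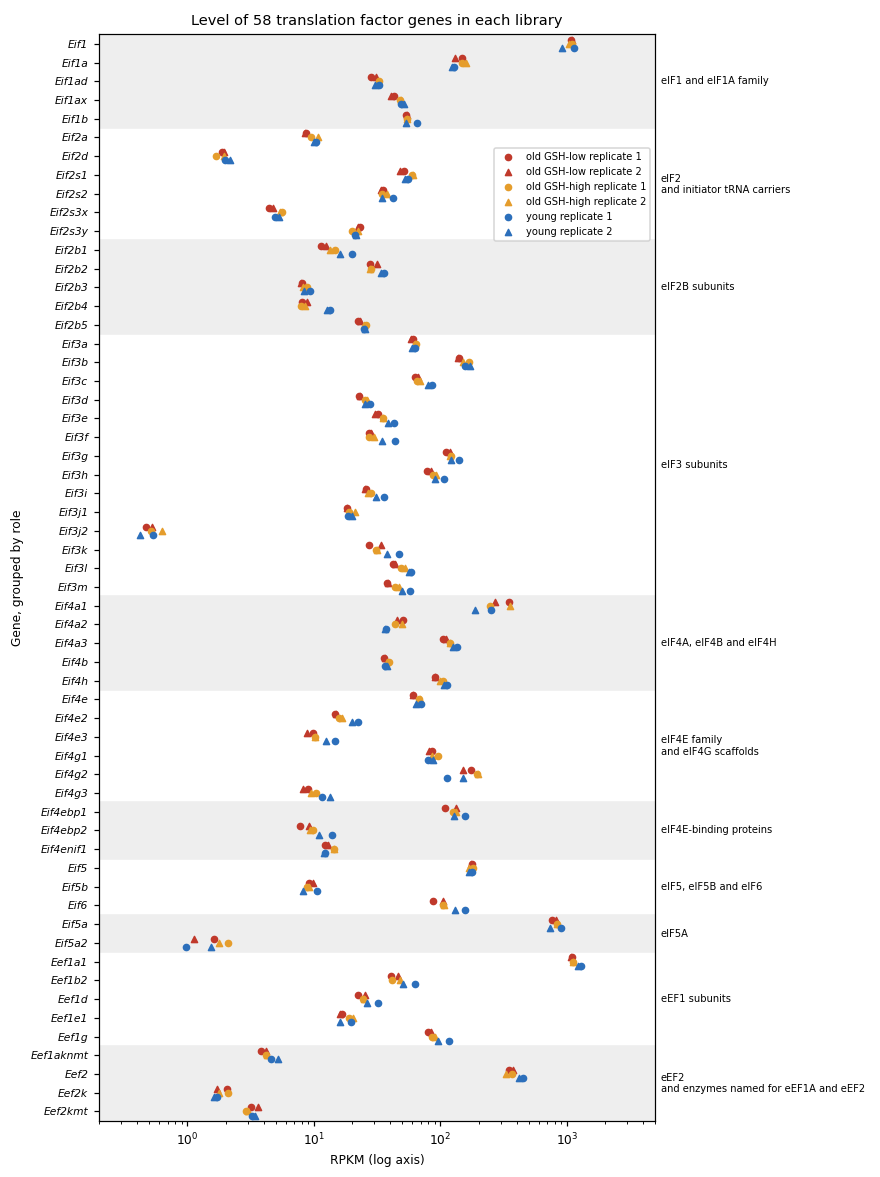
Level of each of the 58 genes in RPKM (log axis) in the 6 libraries, grouped by role, with circles for replicate 1 and triangles for replicate 2. The levels run from under 1 RPKM for Eif3j2 to means of 1147.6 RPKM for Eef1a1 and 1060.1 RPKM for Eif1, and for most genes the 3 groups lie close together.

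Old GSH-low cells were first compared with old GSH-high cells, a contrast of glutathione content within one age. No translation factor gene was called: 0 of 57 rose and 0 fell by limma-trend at an adjusted p under 0.05, where 3.69% of all 10609 genes tested rose, 1.69% fell and 5.38% were called in either direction. At an unadjusted p under 0.05 there were 8 members, all lower in old GSH-low, and limma-voom on the recovered reads also called 0. The share of all genes at an unadjusted p under 0.05 was not counted. Counts at that threshold, here and below, therefore have no background to be read against. The median log2 fold change of the 57 members was -0.10, beside -0.01 over all genes tested. Among genes that passed a stricter filter at 5 RPKM, it was -0.118 for 52 members, beside -0.04 for all 6388. Values of the 57 members ran from -0.31 to 0.15 with standard errors of 0.08 to 0.20. In 35 of 57 members (61.4%) both old GSH-low libraries lay below both old GSH-high libraries, and in 2 members, Eif2s3y and Eef2kmt, both lay above. Over all genes tested, 29.8% lay below and 25.7% above. The lowest adjusted p was 0.126, for Eif2s1.

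Old GSH-high cells were then compared with young cells, which asks what differs with age among cells of high stain. Of 57 members, 3 rose (Eif4g2, Eif4a2 and Eif1a) and 9 fell (Eif2b4, Eif2b2, Eif3c, Eif3f, Eif3k, Eif4e2, Eif4e3, Eif6 and Eef2). That is 5.26% rising and 15.8% falling, where 15.1% of all genes tested rose and 13.7% fell, and 21.1% called in either direction, where the background is 28.8%. The share of members called was thus below the background. The median log2 fold change was -0.10, beside -0.00 over all genes. With the filter at 5 RPKM it was -0.089 for the members, beside -0.03 for all genes. Both old GSH-high libraries lay below both young libraries for 25 members (43.9%; 33.7% of all genes) and above them for 9 (15.8%; 32.4% of all genes). The counts rest on single libraries: they moved when 1 library was left out, and so did the counts over all genes tested. The members' median log2 fold change was -0.02 without young replicate 1 and -0.12 without young replicate 2. It was -0.091 or -0.103 without old GSH-high replicate 1 or 2.

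Old GSH-low cells were last compared with young cells. Of 57 members, 1 rose (Eif4a2, 1.75%) and 19 fell (33.3%), where 18.1% of all genes tested rose and 18.7% fell. The share called in either direction was 35.1%, close to the background of 36.8%. The 19 that fell were Eif1ax, Eif2b1, Eif2b4, Eif3c, Eif3e, Eif3f, Eif3i, Eif3k, Eif3l, Eif3m, Eif4a3, Eif4h, Eif4e2, Eif4e3, Eif4g3, Eif4ebp2, Eif6, Eef1b2 and Eef1g. The median log2 fold change was -0.19, beside -0.02 over all genes tested. With the filter at 5 RPKM it was -0.219 for the members, beside -0.08 for all genes, so part of the distance went with level. Both old GSH-low libraries lay below both young libraries for 37 members (64.9%; 36.5% of all genes) and above them for 4 (7.02%; 32.6% of all genes). The counts of members and of all genes called moved here too when 1 library was left out. The members' median was -0.149 or -0.207 without old GSH-low replicate 1 or 2, and -0.146 or -0.248 without young replicate 1 or 2. This comparison shares the young libraries with the one before it and the old GSH-low libraries with the first, so that the 3 sets of values are not independent. Across the 3 comparisons 24 members (42.1%) were called at least once and 33 were tested and called in none, and the share of all genes tested that was called at least once was 42.2%.

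**Figure D2:**
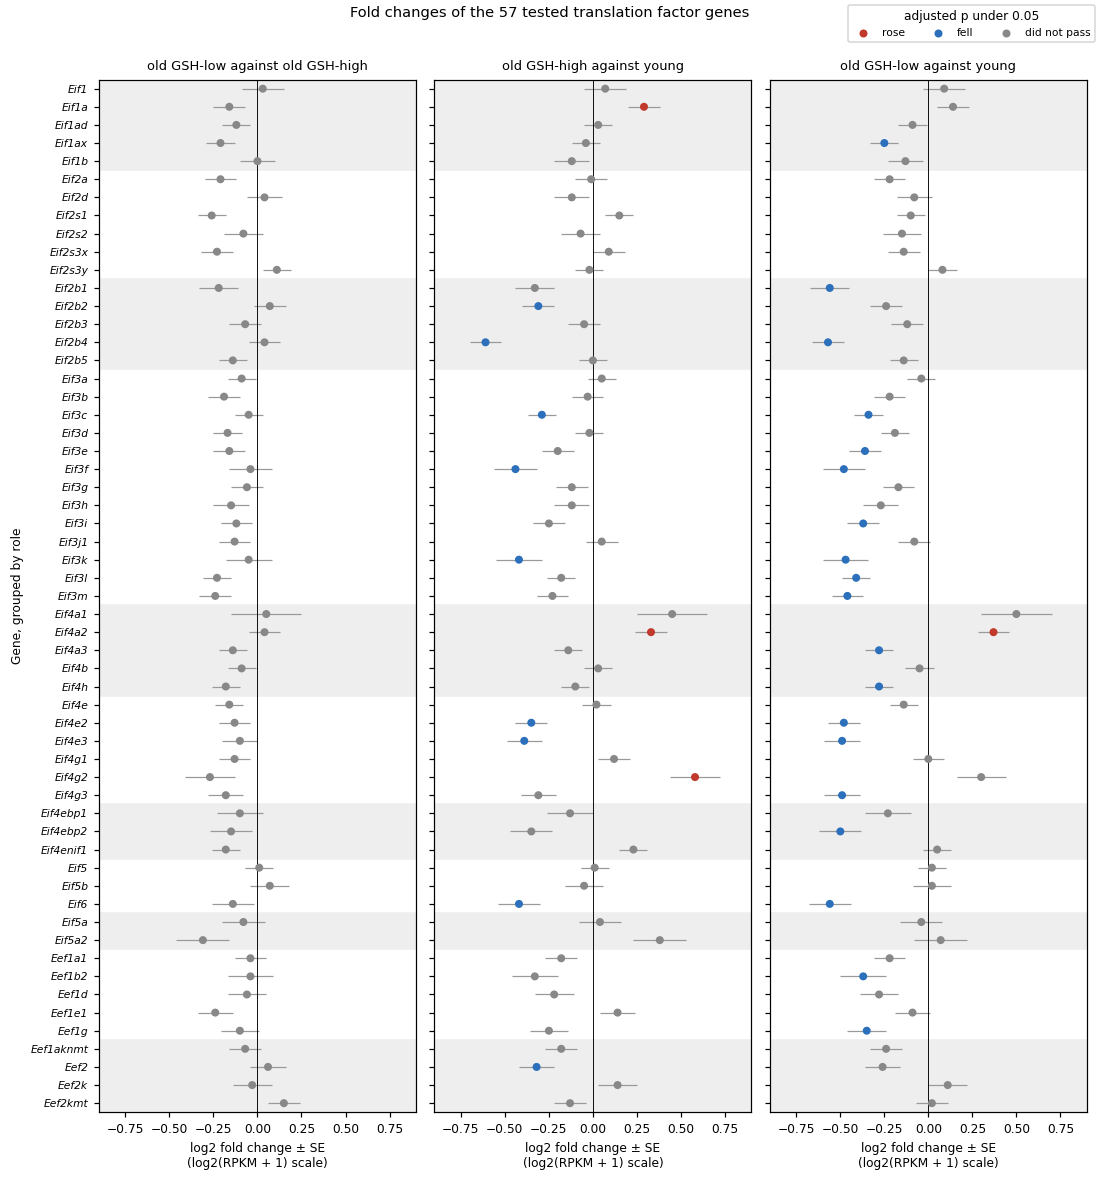
Log2 fold change on the log2(RPKM + 1) scale, with its standard error, of the 57 tested genes in the 3 comparisons, grouped by role; colour marks genes that rose or fell at an adjusted p under 0.05. No gene is coloured in old GSH-low against old GSH-high, 12 are in old GSH-high against young and 20 in old GSH-low against young, most of them to the left of 0.

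**Figure D3:**
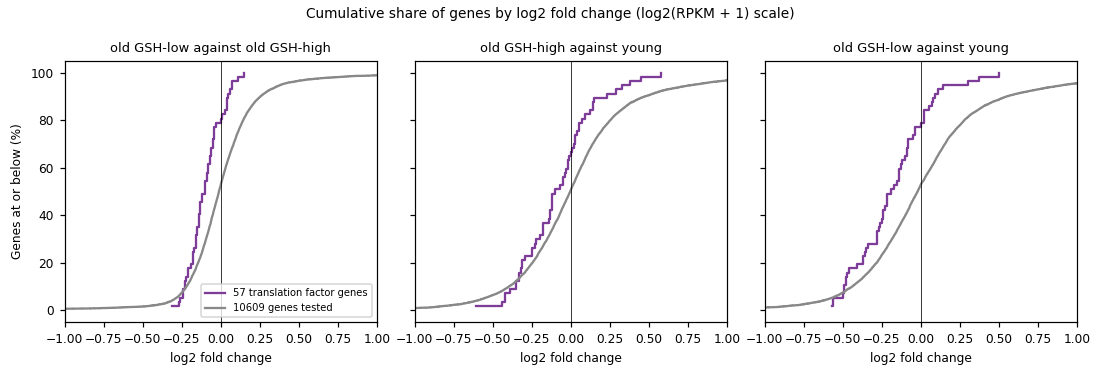
Share of genes (%) at or below each log2 fold change, for the 57 members and for all 10609 genes tested, with the horizontal axis ending at -1 and 1. The members' line lies left of that of all genes over most of the range in each panel, with medians of -0.10, -0.10 and -0.19 against -0.01, -0.00 and -0.02.

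Stretches around the start sites of 6 members that fell in at least 1 comparison with young are shown as context for these genes, with 3 motifs marked. RefSeq start sites gave windows for 46 of 58 members and for 8329 of the genes tested, each from 250 bases before to 50 bases after the start (GRCm38.p6). A gene was counted for a motif if any of its windows held it, and shares are of the genes with a window. The ETS motif CCGGAAGT, searched on both strands, was in 8 of 46 members (17.4%) and in 9.57% of all these genes. Of the 16 members with a window that fell in a comparison with young 5 had it, and 3 of the other 30. The E-box CACGTG, which reads the same on both strands, was in 13 of 46 (28.3%) and in 12.1% of all these genes, with 4 of the 16 that fell and 9 of the other 30. TATAAA, on both strands, was in 5 of 46 (10.9%) and in 8.8% of all these genes. The motifs CCGGAAGT, CACGTG and TATAAA share no overlap in the windows shown. Below are 100-base windows of 6 members that fell, 5′ to 3′ on the gene's own strand, with the motif, or its reverse complement for Eif3l, in capitals. Eif2b4, Eif3l and Eef1b2 carry the ETS motif, and Eif3f, Eif3k and Eef2 the E-box, with TATAAA also in capitals in Eif3f and Eef2. In Eif2b4 and Eef1b2 the match lies just after the start site, at the end of the stretch shown. The other matches shown lie before the start site. A match describes the letters and does not show that a factor binds there.
Eif2b4 (chr5:31193130-31193229, minus strand): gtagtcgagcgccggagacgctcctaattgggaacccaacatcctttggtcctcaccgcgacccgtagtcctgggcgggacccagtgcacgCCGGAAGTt
Eif3l (chr15:79075133-79075232, plus strand): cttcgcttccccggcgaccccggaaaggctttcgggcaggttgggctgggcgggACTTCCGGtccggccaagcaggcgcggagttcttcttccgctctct
Eef1b2 (chr1:63176741-63176840, plus strand): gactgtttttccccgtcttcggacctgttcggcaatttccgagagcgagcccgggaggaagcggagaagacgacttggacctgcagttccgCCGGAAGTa
Eif3f (chr7:108934325-108934424, plus strand): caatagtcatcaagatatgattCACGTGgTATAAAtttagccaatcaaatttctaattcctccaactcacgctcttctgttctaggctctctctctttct
Eif3k (chr7:28981879-28981978, minus strand): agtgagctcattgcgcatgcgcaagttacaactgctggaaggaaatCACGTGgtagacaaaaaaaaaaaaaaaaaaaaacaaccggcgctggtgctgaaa
Eef2 (chr10:81176541-81176640, plus strand): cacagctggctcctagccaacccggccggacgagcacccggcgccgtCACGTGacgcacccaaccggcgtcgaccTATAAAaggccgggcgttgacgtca

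Among the start-codon factors, Eif1ax fell in old GSH-low against young and Eif1a rose in old GSH-high against young, and the others did not pass in any comparison. Eif1a and Eif1ax both encode eIF1A, which works with eIF1 in scanning. Eif1a had 147.7 and 129.9 RPKM in the old GSH-low libraries, 148.4 and 160.6 in the old GSH-high libraries and 127.8 and 124.2 in the young libraries. Both old GSH-high libraries lay above both young ones, and Eif1a rose there by 0.29 ± 0.09 on the log2 scale (SE; adjusted p = 0.047). The call is at the edge of the threshold: it was lost with any 1 of the 6 libraries left out. It was also lost in a fit of the 4 libraries of the comparison and with a block on the replicate number. Over 16 alternatives the log2 fold change was 0.23 to 0.35. Eif1ax, on chromosome X (159372178 to 159389928), had 43.3 and 40.5 RPKM in the old GSH-low libraries, 48.3 and 48.9 in the old GSH-high libraries and 48.6 and 51.8 in the young libraries. Old GSH-low lay below young without overlap, with -0.25 ± 0.08 (adjusted p = 0.0394). The call was lost when young replicate 2 or any old library was left out. Median-of-ratios scaling, scaling by library size only, the 4 libraries of the comparison and the replicate block each ended it too. Its log2 fold change was -0.3 to -0.19 over the alternatives. The eIF1A transcripts stood at a ratio of Eif1a to Eif1ax of 3.41 and 3.21 in the old GSH-low libraries, 3.07 and 3.28 in the old GSH-high libraries and 2.63 and 2.4 in the young libraries, higher in all 4 old libraries than in both young ones. Eif1 itself had 1081.6 and 1092.8 RPKM in the old GSH-low libraries, 1090.6 and 1044.7 in the old GSH-high libraries and 1134.6 and 916.5 in the young libraries, so that the young libraries enclosed all the others. Its paralogue Eif1b and the eIF1A-like Eif1ad had log2 fold changes between -0.13 and 0.03.

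None of the 6 genes of eIF2 and the other initiator tRNA carriers was called in any comparison by limma-trend or limma-voom. At an unadjusted p under 0.05 there were 3 between the old groups, 0 in old GSH-high against young and 1 in old GSH-low against young, all lower. Eif2s1 encodes the alpha subunit, whose phosphorylation slows initiation. It had 51.6 and 48.3 RPKM in the old GSH-low libraries, 59.3 and 60.3 in the old GSH-high libraries and 55.1 and 52.3 in the young libraries. Old GSH-low was lowest and old GSH-high highest without overlap; the log2 fold changes were -0.26 ± 0.08 between the old groups (adjusted p = 0.126), 0.15 ± 0.08 in old GSH-high against young (adjusted p = 0.19) and -0.10 ± 0.08 in old GSH-low against young (adjusted p = 0.351). Eif2s2, the beta subunit, had 35.1 and 33.6 RPKM in the old GSH-low libraries, 34.5 and 38.1 in the old GSH-high libraries and 42.5 and 34.3 in the young libraries, which overlapped in each pair of groups. The gamma subunit is encoded on both sex chromosomes. Eif2s3y had 23.2 and 22.2 RPKM in the old GSH-low libraries, 20.0 and 22.1 in the old GSH-high libraries and 21.2 and 21.5 in the young libraries. Eif2s3x had 4.41 and 4.73 RPKM in the old GSH-low libraries, 5.64 and 5.38 in the old GSH-high libraries and 4.93 and 5.33 in the young libraries. The ratio of Eif2s3y to Eif2s3x was 5.26 and 4.69 in the old GSH-low libraries, 3.54 and 4.1 in the old GSH-high libraries and 4.3 and 4.04 in the young libraries, and was higher in both old GSH-low libraries than in any other library. Reads of Eif2s3x are uncertain, since 33.7% of its 100-base stretches are shared with another gene. Eif2a and Eif2d, factors that can deliver initiator tRNA by other routes, had log2 fold changes between -0.22 and 0.04.

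Of the 5 eIF2B subunit genes 2 fell in each comparison with young, where 13.7% of all genes tested fell in old GSH-high and 18.7% in old GSH-low. These were Eif2b4 in both, Eif2b2 in old GSH-high and Eif2b1 in old GSH-low, and the catalytic epsilon subunit Eif2b5 did not pass. In old GSH-low against young all 5 values were negative, and for all 5 both old GSH-low libraries lay below both young ones, as for 36.5% of all genes. Eif2b4 encodes the delta subunit (chromosome 5, 31187558 to 31193430). It had 8.09 and 8.84 RPKM in the old GSH-low libraries, 7.92 and 8.49 in the old GSH-high libraries and 13.4 and 12.7 in the young libraries. All 4 old libraries lay below both young ones, and the old groups overlapped. The log2 fold change was -0.61 ± 0.09 in old GSH-high against young (adjusted p = 0.00126) and -0.57 ± 0.09 in old GSH-low against young (adjusted p = 0.00141), a mean level of 8.21 ± 0.406 RPKM in old GSH-high and 8.46 ± 0.533 in old GSH-low against 13.1 ± 0.481 in young (SD, n = 2 each). Both calls held in all 16 alternatives, with adjusted p of at most 0.0187 and 0.019. These were the lowest adjusted p-values of the 57 members in those comparisons. Of its exon bases 7.85% overlap Snx17 on the opposite strand, and reads there cannot be assigned without strand.

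Eif2b1, the alpha subunit, which helps assemble the eIF2B decamer, had 11.4 and 12.5 RPKM in the old GSH-low libraries, 14.8 and 13.4 in the old GSH-high libraries and 20.1 and 16.1 in the young libraries. The 3 groups did not overlap. It fell in old GSH-low against young by 0.56 on the log2 scale (SE 0.11, adjusted p = 0.00598), a call that missed the threshold at an adjusted p of 0.0524 without old GSH-low replicate 1. In old GSH-high against young the value was -0.33 ± 0.11 (adjusted p = 0.0601). Eif2b2, the beta subunit, had 27.5 and 31.5 RPKM in the old GSH-low libraries, 28.3 and 27.7 in the old GSH-high libraries and 35.9 and 34.1 in the young libraries. All old libraries lay below both young ones. Its fold change was -0.31 ± 0.09 in old GSH-high (adjusted p = 0.0325) and -0.24 ± 0.09 in old GSH-low against young (adjusted p = 0.0673); the first was lost without young replicate 1 or either old GSH-high library and in 3 further alternatives, one of which removes the length trend (adjusted p up to 0.162). Eif2b3, the gamma subunit, had log2 fold changes of -0.05 and -0.12 against young in old GSH-high and old GSH-low. Eif2b5 had 22.4 and 23.2 RPKM in the old GSH-low libraries, 25.6 and 24.7 in the old GSH-high libraries and 24.7 and 25.5 in the young libraries. Old GSH-high and young overlapped, with 0.00 ± 0.08, and old GSH-low lay below both, with -0.14 ± 0.08 against each (adjusted p = 0.391 and 0.208). The ratio of Eif2b4 to Eif2b5 was 0.362 and 0.382 in the old GSH-low libraries, 0.309 and 0.344 in the old GSH-high libraries and 0.541 and 0.498 in the young libraries, lower in all 4 old libraries.

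Of the 13 tested eIF3 subunit genes, 7 fell in old GSH-low against young (53.8%; 18.7% of all genes), 3 fell in old GSH-high against young (23.1%; 13.7% of all genes), and 0 passed between the old groups (2 at an unadjusted p under 0.05, and 0 by limma-voom). Their median log2 fold change was -0.34 in old GSH-low against young, -0.18 in old GSH-high against young and -0.13 between the old groups. In old GSH-low against young all 13 values were negative, and in 12 of 13 (92.3%; 36.5% of all genes) both old GSH-low libraries lay below both young ones. The eIF3 subunits summed to 688.9 and 708.6 RPKM in the old GSH-low libraries, 767.6 and 764.0 in the old GSH-high libraries and 881.7 and 814.4 in the young libraries, 3 groups that did not overlap.

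The 2 eIF3 subunits whose calls held in all 16 alternatives were Eif3l and Eif3m. Both belong to the PCI subunits, which form the body of the complex. Eif3l (chromosome 15, 79075179 to 79094405) had 42.4 and 43.4 RPKM in the old GSH-low libraries, 48.8 and 52.2 in the old GSH-high libraries and 58.0 and 56.5 in the young libraries. The groups did not overlap, and old GSH-high stood between the others. The log2 fold changes were -0.41 ± 0.08 in old GSH-low against young (adjusted p = 0.0047), -0.18 ± 0.08 in old GSH-high against young (adjusted p = 0.128) and -0.23 ± 0.08 between the old groups (adjusted p = 0.162). Eif3m (chromosome 2, 104999656 to 105017080) had 38.0 and 38.5 RPKM in the old GSH-low libraries, 44.0 and 46.6 in the old GSH-high libraries and 57.2 and 49.4 in the young libraries. It showed the same order without overlap. Its log2 fold change in old GSH-low against young was -0.46 ± 0.09 (adjusted p = 0.00522), and -0.23 ± 0.09 in old GSH-high against young (adjusted p = 0.10).

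Eif3c, Eif3f and Eif3k fell in both comparisons with young. Eif3c, a core PCI subunit, had 63.4 and 66.8 RPKM in the old GSH-low libraries, 65.7 and 69.0 in the old GSH-high libraries and 85.0 and 79.9 in the young libraries. Eif3f, one of the subunits with an MPN domain, had 27.0 and 28.5 RPKM in the old GSH-low libraries, 27.3 and 29.9 in the old GSH-high libraries and 44.1 and 34.6 in the young libraries. Eif3k, a PCI subunit at the edge of the complex, had 27.1 and 33.6 RPKM in the old GSH-low libraries, 31.0 and 31.5 in the old GSH-high libraries and 47.3 and 37.7 in the young libraries. For each of them all 4 old libraries lay below both young ones and the old groups overlapped. The log2 fold changes of Eif3c were -0.29 ± 0.08 (adjusted p = 0.0307) in old GSH-high and -0.34 ± 0.08 (adjusted p = 0.0132) in old GSH-low against young. Eif3f changed by -0.44 ± 0.12 (adjusted p = 0.0229) and -0.48 ± 0.12 (adjusted p = 0.0131), and Eif3k by -0.42 ± 0.13 (adjusted p = 0.0393) and -0.47 ± 0.13 (adjusted p = 0.0215), in the same order. The young libraries themselves were apart for Eif3f and Eif3k, and without young replicate 1, or without either old GSH-high library, none of the 3 was called in old GSH-high against young (adjusted p up to 0.221 for Eif3c, 0.156 for Eif3f and 0.169 for Eif3k over the alternatives); Eif3c was lost there without either old GSH-low library too. With library size only or the replicate block, Eif3c and Eif3k were also not called in old GSH-high against young. Eif3c was not called there with the 4 libraries of the comparison either. In old GSH-low against young all 3 were lost without old GSH-low replicate 1, and Eif3k also without young replicate 1. Their log2 fold changes there were at most -0.27, -0.31 and -0.31 over the alternatives.

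Eif3e and Eif3i fell in old GSH-low against young. Eif3e, a PCI subunit, had 32.2 and 30.4 RPKM in the old GSH-low libraries, 35.3 and 35.0 in the old GSH-high libraries and 42.7 and 38.2 in the young libraries. Eif3i, of the module with Eif3b and Eif3g, had 25.6 and 25.1 RPKM in the old GSH-low libraries, 28.4 and 26.9 in the old GSH-high libraries and 35.5 and 30.8 in the young libraries. For both the groups stood in the order old GSH-low, old GSH-high, young, without overlap. The values against young were -0.36 ± 0.09 for Eif3e (adjusted p = 0.0123) and -0.37 ± 0.09 for Eif3i (adjusted p = 0.0142), and each was lost without either old GSH-low library (adjusted p up to 0.0865 and 0.0757). Eif3a, the largest scaffold subunit, had 60.8 and 58.7 RPKM in the old GSH-low libraries, 64.4 and 63.0 in the old GSH-high libraries and 63.0 and 59.8 in the young libraries, with -0.04 ± 0.08 in old GSH-low against young (adjusted p = 0.73). Eif3b, the RNA-binding scaffold, had 141.3 and 138.6 RPKM in the old GSH-low libraries, 168.6 and 151.6 in the old GSH-high libraries and 155.8 and 171.0 in the young libraries. Old GSH-low lay below both other groups, with -0.22 ± 0.09 against young (adjusted p = 0.0926). Eif3d, Eif3g, Eif3h and Eif3j1 had values between -0.27 and -0.08 in that comparison and did not pass. Of the exon bases of Eif3d, 43.3% overlap the antisense gene Gm17638, which leaves its level uncertain.

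**Figure D4:**
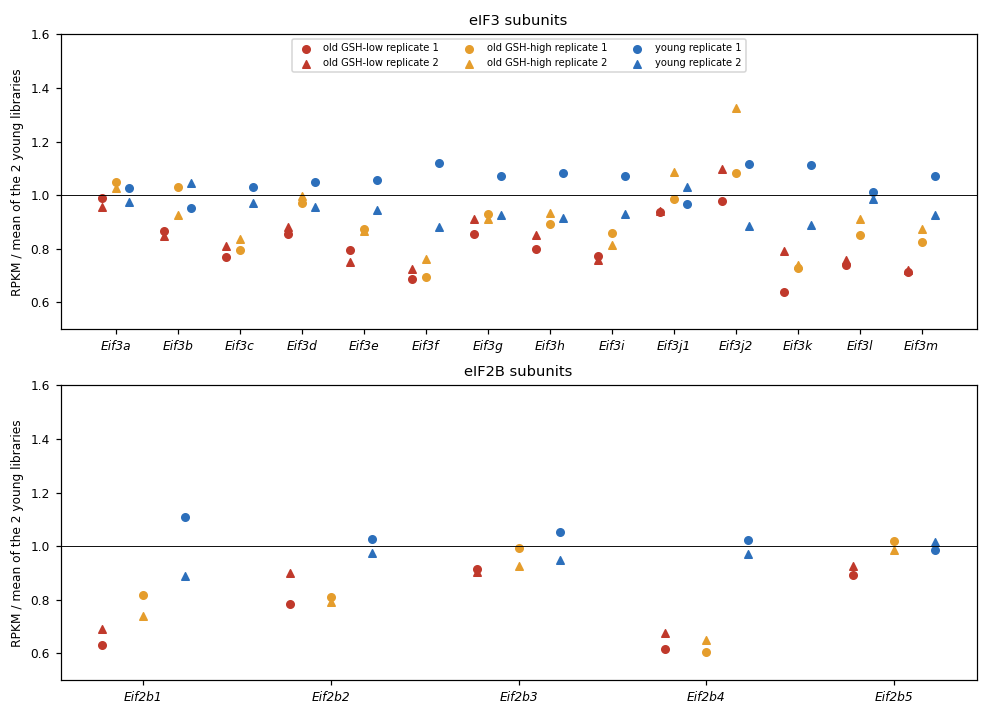
RPKM of each eIF3 and eIF2B subunit gene in the 6 libraries divided by the mean of the 2 young libraries (vertical axis from 0.5), with circles for replicate 1 and triangles for replicate 2. Genes well below 1 in old GSH-low include Eif2b1, Eif2b4, Eif3f, Eif3k, Eif3l and Eif3m, and Eif2b4, Eif3f and Eif3k lie similarly low in old GSH-high. Eif2b5 and Eif3a lie near 1, and the 2 young libraries are far apart for Eif3f and Eif3k.

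Among the eIF4A helicases, Eif4a2 rose in both comparisons with young, and Eif4a3 fell in old GSH-low against young. Eif4a2 (chromosome 16, 23107444 to 23114136) had 50.8 and 45.4 RPKM in the old GSH-low libraries, 44.0 and 49.5 in the old GSH-high libraries and 37.4 and 36.4 in the young libraries. All 4 old libraries lay above both young ones. The log2 fold change was 0.33 ± 0.09 in old GSH-high (adjusted p = 0.0305) and 0.37 ± 0.09 in old GSH-low against young (adjusted p = 0.0152). The first was lost when either old GSH-high or either young library was left out, and with the replicate block. The second was lost when old GSH-low replicate 1 was left out. Over the alternatives the log2 fold changes were 0.25 to 0.41 and 0.29 to 0.45. Its exons hold small RNA genes and overlap Rfc4 on the opposite strand, 13.3% of exon bases in all. Eif4a1, the more abundant helicase, had 345.8 and 272.3 RPKM in the old GSH-low libraries, 246.9 and 356.4 in the old GSH-high libraries and 249.1 and 187.6 in the young libraries. It varied widely within each group and did not pass, at 0.45 ± 0.20 in old GSH-high (adjusted p = 0.118) and 0.50 ± 0.20 in old GSH-low against young (adjusted p = 0.0769). It is the second gene called as rising in old GSH-low against young under the alternatives with library size only, limma-voom, the 4 libraries of the comparison or the length trend removed, and 22.6% of its 100-base stretches occur in other genes. Eif4a3, the helicase of the exon junction complex, had 104.0 and 110.3 RPKM in the old GSH-low libraries, 118.0 and 118.5 in the old GSH-high libraries and 135.3 and 125.7 in the young libraries. The groups did not overlap, and the change in old GSH-low against young was -0.28 ± 0.08 (adjusted p = 0.0286).

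Eif4h, a cofactor of the helicase, had 90.1 and 89.8 RPKM in the old GSH-low libraries, 103.9 and 99.7 in the old GSH-high libraries and 112.6 and 106.2 in the young libraries, again 3 groups without overlap. It fell in old GSH-low against young, with -0.28 ± 0.08 (adjusted p = 0.0256). Neither call is firm: Eif4h and Eif4a3 were lost with young replicate 1 or any old library left out. Both were also lost with library size only, the 4 libraries of the comparison or the replicate block. Their log2 fold changes over the alternatives were -0.32 to -0.21 and -0.33 to -0.2. Eif4b, the other cofactor, lay between -0.09 and 0.03 in the 3 comparisons.

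Among the cap-binding proteins, the canonical Eif4e did not pass and its relatives Eif4e2 and Eif4e3 fell in both comparisons with young. Eif4e had 61.1 and 61.0 RPKM in the old GSH-low libraries, 67.2 and 69.2 in the old GSH-high libraries and 70.3 and 64.6 in the young libraries. Its log2 fold change was 0.02 ± 0.08 in old GSH-high (adjusted p = 0.897) and -0.14 ± 0.08 in old GSH-low against young (adjusted p = 0.208). Eif4e2 encodes 4EHP, which binds the cap without recruiting eIF4G and represses selected mRNAs (chromosome 1, 87213914 to 87240488). It had 14.6 and 14.9 RPKM in the old GSH-low libraries, 15.8 and 16.8 in the old GSH-high libraries and 22.2 and 19.9 in the young libraries. The groups did not overlap, with young highest. The values were -0.35 ± 0.09 in old GSH-high (adjusted p = 0.0185) and -0.48 ± 0.09 in old GSH-low against young (adjusted p = 0.00324). The old GSH-low call held in all 16 alternatives (adjusted p at most 0.0312), and the old GSH-high call was lost without young replicate 1 or either old GSH-high library (adjusted p up to 0.15). Eif4e3, a cap-binding relative, had 9.91 and 8.88 RPKM in the old GSH-low libraries, 10.1 and 10.2 in the old GSH-high libraries and 14.8 and 12.4 in the young libraries. All old libraries lay below both young ones. It changed by -0.39 ± 0.10 in old GSH-high (adjusted p = 0.0237, lost without the same 3 libraries, up to 0.123) and by -0.49 ± 0.10 in old GSH-low against young (adjusted p = 0.00696, and 0.0544 without old GSH-low replicate 2). Of its exon bases 14.8% overlap another gene on the same strand.

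Of the 3 eIF4G scaffolds, Eif4g2 rose in old GSH-high against young and Eif4g3 fell in old GSH-low against young, and whether the scaffolds differ from each other was not tested. Eif4g1, the main scaffold, had 85.5 and 81.3 RPKM in the old GSH-low libraries, 96.5 and 86.0 in the old GSH-high libraries and 80.0 and 87.5 in the young libraries, and was not called in any comparison. Eif4g2 encodes DAP5, which lacks the eIF4E-binding site (chromosome 7, 111067750 to 111083030). It had 173.3 and 149.8 RPKM in the old GSH-low libraries, 193.1 and 196.8 in the old GSH-high libraries and 112.7 and 150.7 in the young libraries. Old GSH-high lay above both other groups, and old GSH-low overlapped young. It rose in old GSH-high against young, with 0.58 ± 0.14 (adjusted p = 0.014), which is lost without either old GSH-high library (adjusted p up to 0.0708), and its value was 0.30 ± 0.14 in old GSH-low against young (adjusted p = 0.115) and -0.27 ± 0.14 between the old groups (adjusted p = 0.321). Eif4g3, the second cap-dependent scaffold (chromosome 4, 137993022 to 138208508), had 9.0 and 8.16 RPKM in the old GSH-low libraries, 10.3 and 9.46 in the old GSH-high libraries and 11.6 and 13.4 in the young libraries. The groups did not overlap and young was highest. It fell in old GSH-low against young, with -0.49 ± 0.10 (adjusted p = 0.00586, at most 0.0466 in 16 alternatives), and its value in old GSH-high against young was -0.31 ± 0.10 (adjusted p = 0.0508). The ratio of Eif4g2 to Eif4g1 was 2.03 and 1.84 in the old GSH-low libraries, 2.0 and 2.29 in the old GSH-high libraries and 1.41 and 1.72 in the young libraries, higher in all 4 old libraries than in both young ones.

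Of the proteins that hold eIF4E, Eif4ebp2 fell in old GSH-low against young. The 4E-binding proteins block eIF4E until mTORC1 phosphorylates them. Eif4ebp2 had 7.82 and 9.18 RPKM in the old GSH-low libraries, 9.75 and 9.31 in the old GSH-high libraries and 14.0 and 11.0 in the young libraries. The groups did not overlap. Its change was -0.50 ± 0.12 in old GSH-low (adjusted p = 0.0135) and -0.35 ± 0.12 in old GSH-high against young (adjusted p = 0.0649), and the first was lost without young replicate 1 or old GSH-low replicate 1 (adjusted p up to 0.107). Eif4ebp1, the more abundant, had 108.4 and 132.9 RPKM in the old GSH-low libraries, 124.7 and 133.0 in the old GSH-high libraries and 155.1 and 128.0 in the young libraries, and the groups overlapped. The ratio of Eif4ebp1 to Eif4e was 1.77 and 2.18 in the old GSH-low libraries, 1.85 and 1.92 in the old GSH-high libraries and 2.21 and 1.98 in the young libraries, with old GSH-low enclosing old GSH-high. Eif4enif1, the eIF4E transporter, had 12.2 and 12.9 RPKM in the old GSH-low libraries, 14.5 and 14.3 in the old GSH-high libraries and 12.2 and 12.0 in the young libraries, with 0.23 ± 0.08 in old GSH-high against young (adjusted p = 0.0617).

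Eif6, which binds the large subunit and keeps it from joining the small one too early, fell in both comparisons with young. It had 87.9 and 104.0 RPKM in the old GSH-low libraries, 105.2 and 105.8 in the old GSH-high libraries and 155.4 and 129.3 in the young libraries (chromosome 2, 155819832 to 155826925). The 3 groups did not overlap, and young was highest. The log2 fold change was -0.42 ± 0.12 in old GSH-high (adjusted p = 0.0253) and -0.56 ± 0.12 in old GSH-low against young (adjusted p = 0.00581). The first was lost without young replicate 1 or either old GSH-high library (adjusted p up to 0.127) and the second when old GSH-low replicate 1 was left out (adjusted p = 0.0599). The GTPase partners of subunit joining did not pass. Eif5, which triggers GTP hydrolysis by eIF2, had 176.4 and 174.7 RPKM in the old GSH-low libraries, 180.0 and 168.3 in the old GSH-high libraries and 177.1 and 168.9 in the young libraries, with fold changes of 0.01 to 0.02 and standard errors of 0.08. Eif5b, the GTPase that joins the subunits, had 9.06 and 9.83 RPKM in the old GSH-low libraries, 8.82 and 9.08 in the old GSH-high libraries and 10.5 and 8.22 in the young libraries, and the groups overlapped.

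Eif5a, the factor that carries hypusine and relieves stalls at proline, had 759.7 and 817.2 RPKM in the old GSH-low libraries, 832.1 and 833.6 in the old GSH-high libraries and 897.9 and 730.2 in the young libraries. The young libraries enclosed all the old ones, and no comparison passed. Its rare paralogue Eif5a2 had 1.62 and 1.12 RPKM in the old GSH-low libraries, 2.08 and 1.79 in the old GSH-high libraries and 0.979 and 1.54 in the young libraries. Old GSH-high lay above both other groups, with 0.38 ± 0.15 against young (adjusted p = 0.088), and Eif5a2 is among the members that limma-voom called there in addition. The ratio of Eif5a to Eif5a2 ranged from 400.8 in an old GSH-high library to 917.4 in a young one.

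Of the elongation factors proper, Eef2 fell in old GSH-high against young, and Eef1b2 and Eef1g fell in old GSH-low against young. Eef1a1 (chromosome 9, 78478449 to 78489151) had 1087.5 and 1068.5 RPKM in the old GSH-low libraries, 1111.8 and 1108.4 in the old GSH-high libraries and 1295.3 and 1213.9 in the young libraries. The groups did not overlap, and the changes were -0.18 ± 0.09 in old GSH-high (adjusted p = 0.188) and -0.22 ± 0.09 in old GSH-low against young (adjusted p = 0.0969). Eef1b2, the nucleotide exchange subunit, had 40.7 and 46.0 RPKM in the old GSH-low libraries, 41.6 and 47.9 in the old GSH-high libraries and 63.1 and 50.4 in the young libraries. Eef1g, the gamma subunit of eEF1B, had 80.0 and 84.0 RPKM in the old GSH-low libraries, 86.2 and 90.2 in the old GSH-high libraries and 116.3 and 95.0 in the young libraries. For both, all 4 old libraries lay below both young ones, which were themselves apart. The values in old GSH-low against young were -0.37 ± 0.13 for Eef1b2 (adjusted p = 0.045) and -0.35 ± 0.11 for Eef1g (adjusted p = 0.0293). Both calls were lost without young replicate 1 or any old library. They were also lost with library size only, the 4 libraries of the comparison or the replicate block, and Eef1b2 with median-of-ratios scaling. Over the alternatives the values ran from -0.53 to -0.21 for Eef1b2 and from -0.5 to -0.21 for Eef1g. Of the 100-base stretches of Eef1g, 32.4% occur in other genes. Eef1d, the other exchange subunit, had 22.1 and 25.3 RPKM in the old GSH-low libraries, 24.6 and 24.9 in the old GSH-high libraries and 31.8 and 26.3 in the young libraries, with -0.28 ± 0.11 in old GSH-low against young (adjusted p = 0.0773). Eef1e1, a scaffold of the tRNA synthetase complex, had values between -0.24 and 0.14.

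Eef2, the translocase (chromosome 10, 81176631 to 81182498), had 349.6 and 376.3 RPKM in the old GSH-low libraries, 365.0 and 330.5 in the old GSH-high libraries and 452.5 and 415.4 in the young libraries. All 4 old libraries lay below both young ones. The changes were -0.32 ± 0.10 in old GSH-high (adjusted p = 0.038) and -0.26 ± 0.10 in old GSH-low against young (adjusted p = 0.0679). The second passed by limma-voom (adjusted p = 0.0405). The old GSH-high call of Eef2 was lost without young replicate 1 or any old library. Library size only, the 4 libraries of the comparison and the replicate block each ended it too. Its kinase Eef2k, which slows elongation, had 2.05 and 1.7 RPKM in the old GSH-low libraries, 2.08 and 1.78 in the old GSH-high libraries and 1.7 and 1.62 in the young libraries, and no comparison passed. The methyltransferases Eef2kmt and Eef1aknmt had values between -0.24 and 0.15. The ratio of Eef1a1 to Eef2 stayed between 2.84 and 3.35 in all 6 libraries.

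The 2 young libraries differed from each other more than the old pairs did, and in a way that ran with gene length. Over the 57 members the difference between replicates 1 and 2 had an SD of 0.13 in old GSH-low, 0.11 in old GSH-high and 0.18 in young, on the log2(RPKM + 1) scale. Of the 57 tested members, 43 (75.4%) were higher in young replicate 1 than in young replicate 2, where 54.1% of all genes tested were. The median difference was 0.10 on the log2 scale for the members and 0.02 for all genes. Spearman's correlation between that difference and exon length was -0.40 over the 57 members and -0.43 over 10609 genes, a description across genes of 2 libraries. In the old groups it was 0.42 and 0.03 for the members, and 0.25 and 0.09 for all genes, in old GSH-low and old GSH-high. Fold changes of the members also ran with exon length, with 0.31 in old GSH-high against young and 0.27 in old GSH-low against young, where over all genes these were 0.17 and 0.14, and with -0.14 between the old groups. With a smooth trend over length removed from each library, an alternative chosen after the data were seen, 9 members fell and 3 rose in old GSH-high against young, and 20 fell and 2 rose in old GSH-low against young. Of all genes tested, 3401 and 4184 were called in that fit, beside 3051 and 3901 in the main fit. The medians of the members were then -0.051 and -0.149, beside -0.102 and -0.193 before. Of the 12 members called in old GSH-high against young 11 were called again, and of the 20 in old GSH-low against young all 20 were.

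**Figure D5:**
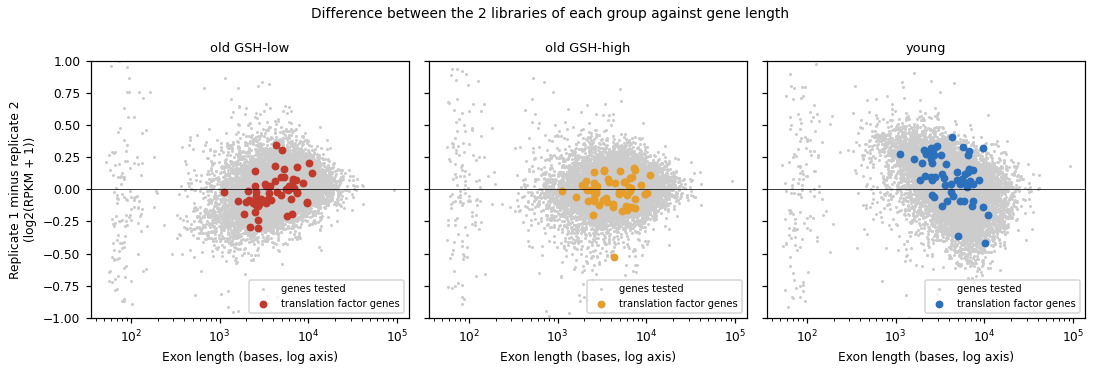
Difference between replicate 1 and replicate 2 in log2(RPKM + 1) against exon length (bases, log axis) in each group, with all genes tested in grey and the 57 members in colour; the vertical axis ends at -1 and 1. In young the short genes lie mostly above 0 and the long genes mostly below it (Spearman -0.43 over all genes), and 43 of 57 members lie above 0.

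Genes around the factors were read from lists of the same pathway. Over all genes tested, 3.69% rose and 1.69% fell between the old groups, 15.1% rose and 13.7% fell in old GSH-high against young, and 18.1% rose and 18.7% fell in old GSH-low against young, and the counts of these small lists stand beside those shares. Of 9 genes for eIF2 alpha kinases, phosphatase subunits and effectors, Ddit3 (CHOP) rose between the old groups, with 12.8 and 13.7 RPKM in old GSH-low against 9.43 and 8.59 in old GSH-high (0.51 ± 0.12, adjusted p = 0.0464). It also rose in old GSH-low against young (10.8 and 8.28 RPKM in young; 0.45 ± 0.12, adjusted p = 0.0196). In old GSH-high against young 2 of the 9 rose and 1 fell, and in old GSH-low against young 3 rose and 1 fell. Impact, which restrains the kinase GCN2, had 11.1 and 9.2 RPKM in the old GSH-low libraries, 9.15 and 9.35 in the old GSH-high libraries and 5.02 and 5.1 in the young libraries. All 4 old libraries lay above both young ones, with 0.76 ± 0.10 in old GSH-high (adjusted p = 0.000774) and 0.88 ± 0.10 in old GSH-low against young (adjusted p = 0.000271). The kinase PKR (Eif2ak2) rose in both comparisons with young, with 0.51 ± 0.12 in old GSH-high (adjusted p = 0.0132) and 0.35 ± 0.12 in old GSH-low (adjusted p = 0.0451), at a mean of 1.91 ± 0.30 RPKM in old GSH-high and 1.61 ± 0.00919 in old GSH-low against 1.05 ± 0.225 in young (SD, n = 2 each). Eif2ak1, the haem-regulated kinase, fell in old GSH-low against young (-0.30 ± 0.09, adjusted p = 0.0256). Ppp1r15a, a phosphatase subunit that undoes eIF2 alpha phosphorylation, had 595.2 and 595.3 RPKM in the old GSH-low libraries, 555.8 and 509.1 in the old GSH-high libraries and 702.9 and 653.6 in the young libraries, and fell in old GSH-high against young (-0.35 ± 0.09, adjusted p = 0.0232). The calls of Impact held in all 16 alternatives, and the others did not. Ddit3 was lost between the old groups without any 1 of the 4 old libraries (adjusted p up to 0.284), and against young without young replicate 2 or either old GSH-low library (up to 0.101). Eif2ak2 was lost in old GSH-high without old GSH-high replicate 2 (0.0947) and in old GSH-low, as Eif2ak1 was, without young replicate 2 or any old library (up to 0.174 and 0.13). Ppp1r15a was lost without young replicate 1 or any old library (up to 0.189).

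None of the 14 genes of mTORC1 and the MNK kinases, which act on the cap-binding complex, was called by limma-trend in any comparison, with medians of 0.06 between the old groups, -0.08 in old GSH-high against young and 0.07 in old GSH-low against young. At an unadjusted p under 0.05 there were 1, 2 and 3 of the 14 in that order, and limma-voom called 0, 0 and 1, the last being the kinase Mknk2. Of 5 genes for poly(A)-binding proteins and partners, Paip2, an inhibitor of the poly(A)-binding protein, fell in both comparisons with young. It had 55.4 and 54.6 RPKM in the old GSH-low libraries, 51.7 and 56.6 in the old GSH-high libraries and 82.4 and 71.9 in the young libraries, with -0.50 ± 0.09 in old GSH-high (adjusted p = 0.00486) and -0.48 ± 0.09 in old GSH-low against young (adjusted p = 0.00475). Of 12 measured genes for termination, recycling and ribosome rescue, Gspt2 (a release factor, eRF3b) rose and Mcts1 fell in both comparisons with young, and Denr, the partner of Mcts1 in recycling and reinitiation, fell in old GSH-low against young. Gspt2 had 1.88 and 1.57 RPKM in the old GSH-low libraries, 1.99 and 2.07 in the old GSH-high libraries and 0.905 and 0.788 in the young libraries. Mcts1 had 11.0 and 11.7 RPKM in the old GSH-low libraries, 12.4 and 12.8 in the old GSH-high libraries and 17.9 and 14.7 in the young libraries. The values of Gspt2 were 0.72 ± 0.10 in old GSH-high and 0.56 ± 0.10 in old GSH-low, and those of Mcts1 -0.34 ± 0.10 and -0.48 ± 0.10, with Denr at -0.28 ± 0.09 in old GSH-low. The adjusted p-values were 0.00117 and 0.00329 for Gspt2, 0.0373 and 0.00715 for Mcts1 and 0.0413 for Denr. Gspt2 held in every alternative that could be fitted and Paip2 in all 16 in old GSH-low, while Paip2 was lost in old GSH-high without old GSH-high replicate 1 (adjusted p = 0.0607). Mcts1 was lost in old GSH-low without old GSH-low replicate 1 (0.0596), and in old GSH-high, as Denr was in old GSH-low, without young replicate 1 or any old library (up to 0.186 and 0.181).

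Of 11 measured enzymes that modify eIF5A, eEF1A and eEF2, Eef1akmt1, a lysine methyltransferase of eEF1A, fell in both comparisons with young, and Dph1 and Dph3, of the diphthamide pathway of eEF2, fell in old GSH-low against young. Eef1akmt1 had 5.8 and 6.65 RPKM in the old GSH-low libraries, 7.59 and 8.07 in the old GSH-high libraries and 11.7 and 9.7 in the young libraries, 3 groups without overlap. It changed by -0.40 ± 0.11 in old GSH-high (adjusted p = 0.0253) and -0.69 ± 0.11 in old GSH-low against young (adjusted p = 0.00156). Dph1 and Dph3 changed by -0.32 ± 0.09 (adjusted p = 0.0274) and -0.31 ± 0.09 (adjusted p = 0.028) in old GSH-low. Of 7 measured genes of selenocysteine insertion, Sephs2, which makes the selenium donor, rose in old GSH-high against young, with 32.1 and 27.8 RPKM against 22.3 and 23.4 (0.37 ± 0.11, adjusted p = 0.0306). Of 8 tested mitochondrial translation factors, Tsfm (the mitochondrial exchange factor EF-Ts) fell by 0.37 in old GSH-high (adjusted p = 0.0256) and fell by 0.49 in old GSH-low (adjusted p = 0.00628) against young on the log2 scale, and Gfm1, a mitochondrial elongation factor G, fell in old GSH-low (-0.47 ± 0.09, adjusted p = 0.00522). The old GSH-low calls of Eef1akmt1 and Tsfm held in every alternative that could be fitted. Their old GSH-high calls were lost without young replicate 1 or either old GSH-high library (adjusted p up to 0.152 and 0.135), Sephs2 without young replicate 1 or old GSH-high replicate 1 (up to 0.232), Gfm1 without old GSH-low replicate 1 (0.0562), Dph1 without young replicate 2 or any old library (up to 0.144) and Dph3 without young replicate 1 or any old library (up to 0.162). Limma-voom and removal of the length trend each also ended the old GSH-high call of Eef1akmt1 and the old GSH-low call of Dph1. Removal of the length trend also ended the old GSH-high call of Mcts1, and a pseudocount of 0.1 or a filter at 5 RPKM the call of Ddit3 between the old groups. Other scalings, the replicate block, or a fit of the 4 libraries of the comparison alone, ended some of the calls already named as lost without a library. Between the old groups Ddit3 was the one gene of these 7 lists that was called by limma-trend.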

How the data were processed

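Per the labels' protocols, RNA of sorted mouse muscle stem cells was reverse-transcribed from oligo(dT) primers, and single-end reads were taken. The deposited table holds RPKM (reads scaled to gene length and to library size), made by the authors. Trim Galore, STAR, featureCounts from Subread, edgeR and GRCm38 (mm10) are named in the submitters' processing notes, and tool versions and strand setting are not given in the sources used here. RPKM values of a gene are whole multiples of 1 read's worth, so that reads could be recovered. Within 0.003 reads plus a relative tolerance of 1e-08, all 12067 genes (100.0%) gave whole reads in all 6 libraries. The gene lengths this gave equalled the union of GENCODE M21 exons for 11814 symbols, 98.5% of the 11988 that were found there. The annotation's lengths had been used to set the scale and the whole-number factors of the reads. The match is therefore not an independent check of the recovery. The table lists 230 values in 144 genes that were read as replaced zeros.

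Genes with RPKM of at least 1 in at least 2 libraries were tested (10609 genes). Values of log2(RPKM + 1) were fitted with limma-trend (limma 3.58.1, R 4.3.3) as a means model of 3 groups over 6 libraries, with 3 residual degrees of freedom, and p-values were adjusted over all genes tested by the Benjamini-Hochberg method. The test is two-sided and calls a gene at an adjusted p under 0.05. The added 1 understates fold changes of genes with low RPKM. Each group has 2 libraries. The spread behind the p-values was shared over the 3 groups and moderated across genes (median total degrees of freedom 8.61). It is a spread between libraries, and old libraries pool 2 animals where young ones hold 1.

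Members were the genes whose symbols match Eif followed by 1 to 6 or Eef followed by 1 or 2, without the Eif2ak kinases, the Eef1akmt enzymes and pseudogenes. Members, roles and lists were chosen with earlier results of these data known, and part of the recovery of reads follows an earlier analysis of them. Genes named with values were members called in any comparison, a panel across roles, the highest and lowest levels and members that failed the filter; from other lists, up to 4 called genes per comparison. The alternatives were other scalings, filters and pseudocounts, limma-voom on the recovered reads, other sets of libraries, a block on the replicate number, and fits without 1 of the libraries. Removal of a length trend (loess, span 0.3) and a block with the young numbers exchanged were chosen after the data were seen. Promoter sequences came from a RefSeq table (GRCm38.p6), and positions of genes from GENCODE M21 (GRCm38). Recovery, counts and figures used Python 3.11.15, numpy 2.4.6, pandas 2.3.3 and matplotlib 3.10.9. A gene of the marker lists is not reported here and was left out of its list's sum.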

Additional observations from a re-analysis of the deposited data

How the results depend on the processing

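Over 16 alternatives, the number of translation factor genes called in old GSH-low against old GSH-high stayed at 0 in each direction, and the median log2 fold change of the tested members kept its sign in all 3 comparisons. The number that fell in old GSH-high against young, 9, was 5 with library size only and 5 with the replicate number as a block, and ranged from 1 to 18 with 1 library left out. The number that rose there, 3, was 1 with the replicate block, 2 with the 4 libraries of the comparison, 4 with library size only and 4 with limma-voom, and ranged from 0 to 2 with 1 library left out. In old GSH-low against young, the number that fell, 19, ranged from 6 to 27 with 1 library left out. The number that rose there, 1, was 2 with library size only, with limma-voom, with the 4 libraries of the comparison and with the length trend removed, and ranged from 0 to 2 with 1 library left out. Among other settings, library size only, the 4 libraries of the comparison and the replicate block each gave 14 that fell in old GSH-low against young. Median-of-ratios size factors gave 17 and limma-voom 22. Without 1 library, its group has 1 left, which is assumed to vary like the others. The causes of these moves were not tested.

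No label says that a replicate number marks a shared animal or day, and deviations of same-numbered libraries correlated at 0.0695 (old GSH-low and old GSH-high), -0.142 (old GSH-high and young) and -0.263 (old GSH-low and young) over 10609 genes, so the numbers were not taken as pairs. With the young numbers exchanged in the replicate block, 5 rose and 14 fell in old GSH-high against young, and 3 rose and 23 fell in old GSH-low against young. Of all genes tested, 3805 and 4538 were then called in these comparisons, where the main fit called 3051 and 3901. The exchange was chosen after the data were seen and turns the negative correlations with young positive. The block then takes up part of the spread, so these higher counts are no support for the calls. With library size only, the median of all genes was 0.05 in old GSH-high against young and 0.04 in old GSH-low against young, against -0.00 and -0.02 with the deposited scaling.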
